A study of Mus musculus with 6 samples.

Results

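Kruppel-like factors are transcription factors that bind GC-rich and CACCC elements of DNA through a zinc-finger domain at the end of the protein, a domain so alike among them that members can act on the same sites. In this study 10 of these genes were followed in cells labelled as bladder epithelium, from mice at postnatal day 7: Klf2, Klf3, Klf4, Klf5, Klf6, Klf7, Klf9, Klf10, Klf13 and Klf15. All probe sets annotated to 1 of these genes alone were taken. This gave 34 of the 45101 probe sets on the array, and 10 of the 18193 genes that have a probe set of their own.

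All mice were on an FVB/N x C57BL/6 background, with B6;129P-Upk1btm1Zhang/J given as the reported gene, an allele of the uroplakin gene Upk1b, and all were labelled male. The DsRed-positive group (3 arrays) and the DsRed-negative group (3 arrays) are cells with and without the red fluorescent protein DsRed from the same kind of preparation, an epithelial layer freed with trypsin and digested to single cells, and in both groups the arrays are numbered 1, 2 and 5. RNA was amplified in 2 rounds and read on Affymetrix whole-genome mouse arrays. The sample titles read uroplakin, the array number, and -ve for DsRed-negative or +ve for DsRed-positive arrays. Beyond this, the labels do not say what drives DsRed, how the cells were parted or which animals the arrays stand for. The p-values therefore cover the spread among the 6 samples, which may be technical. The comparison asks which transcripts differ between cells with the reporter and cells without it, both labelled as bladder epithelial cells. The number of arrays limits its precision.

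The arrays went against the labels in 2 respects. Both arrays numbered 1 gave high Xist signal (45699 in the DsRed-negative and 28183 in the DsRed-positive array, against 203 to 546 in the other 4) and low Eif2s3y signal (3.83 and 31.2, against 3309 to 8043), which goes against the label male. The DsRed-negative arrays, labelled as bladder epithelial cells, carried markers of other cells: the summed deposited signal of 6 fibroblast genes was 547800 to 1365000 there and 13890 to 26640 in the DsRed-positive arrays. For 6 smooth muscle genes the sums were 96640 to 187400 against 1950 to 2830, and 4 of the 5 tested were lower. For 8 endothelial genes they were 11550 to 17700 against 1465 to 2099, and for 6 leukocyte genes 25940 to 38630 against 1816 to 2931. The 8 urothelial markers summed to 17430 to 33370 in the DsRed-negative and 236000 to 421800 in the DsRed-positive arrays, and all 8 were higher in the latter. Uroplakin genes, the family named in the sample titles, are among these 8. In such bulk samples fewer cells of a type and less RNA per cell cannot be told apart.

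Among the members, Klf5 is a factor of dividing and differentiating epithelia and is needed for the bladder urothelium to mature. Klf4 acts in barrier epithelia such as skin and gut, and it is also an early response gene in many cells. Klf2 is best known from endothelium, where flow and the kinase Mapk7 with Mef2 factors induce it, and from lymphocytes. Klf9 and Klf15 are induced by glucocorticoids, and Klf10 by TGF-beta.

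The regions before the start sites are shown for the members that passed the test and have a window in the RefSeq promoter table (build GRCm38.p6), to show which known promoter elements each holds; 8 of the 10 members have such a window. Each runs over the 250 bases before the start, 5′ to 3′ on the strand of the gene. Capitals mark every match, on either strand, to the GC box GGGCGG, the CACCC box CACCC, the CCAAT box CCAAT, the E-box CACGTG, the STAT site TTCNNNGAA or the MEF2 site. Klf2 lies at chr8:72318812-72319061 on the plus strand, Klf4 at chr4:55532476-55532725 on the minus strand, Klf9 at chr19:23140976-23141225 on the plus strand and Klf6 at chr13:5861239-5861488 on the plus strand.
Klf2: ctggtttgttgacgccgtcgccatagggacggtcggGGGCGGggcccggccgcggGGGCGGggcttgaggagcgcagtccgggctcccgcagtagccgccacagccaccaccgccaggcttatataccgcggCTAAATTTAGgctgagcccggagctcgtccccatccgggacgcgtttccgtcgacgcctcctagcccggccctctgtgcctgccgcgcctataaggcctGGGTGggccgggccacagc
Klf4: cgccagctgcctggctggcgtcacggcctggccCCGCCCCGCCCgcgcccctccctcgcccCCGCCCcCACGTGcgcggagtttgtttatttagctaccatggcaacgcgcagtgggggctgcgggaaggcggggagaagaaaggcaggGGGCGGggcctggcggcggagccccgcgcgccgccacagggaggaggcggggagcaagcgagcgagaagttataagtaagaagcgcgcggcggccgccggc
Klf9: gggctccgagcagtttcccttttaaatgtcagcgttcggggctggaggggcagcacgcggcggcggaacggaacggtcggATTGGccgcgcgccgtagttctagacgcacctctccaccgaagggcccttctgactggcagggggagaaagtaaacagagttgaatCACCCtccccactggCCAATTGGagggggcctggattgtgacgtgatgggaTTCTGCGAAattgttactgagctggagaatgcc
Klf6: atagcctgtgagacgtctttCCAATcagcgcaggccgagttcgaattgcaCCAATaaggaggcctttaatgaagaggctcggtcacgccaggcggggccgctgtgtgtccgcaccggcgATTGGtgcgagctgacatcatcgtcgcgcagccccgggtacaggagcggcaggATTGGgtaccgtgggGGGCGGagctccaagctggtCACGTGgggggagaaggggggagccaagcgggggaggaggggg

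The window of Klf2 holds a MEF2 site, CTAAATTTAG, from 118 to 109 bases before the start, and no other member window holds a match to it. A MEF2 site occurs in 2.92% of all 32851 promoter windows. Klf4 has 4 GC boxes, some of them overlapping, and 1 E-box. Klf6 has 4 CCAAT boxes, and Klf9 has 3, of which 2 overlap, beside a STAT site (TTCTGCGAA). Over the members, a GC box stood in 7 of 8 windows against 32.7% of all windows, a CACCC box in 6 of 8 against 52.0%, a CCAAT box in 4 of 8 against 33.8%, an E-box in 3 of 8 against 6.02% and a STAT site in 1 of 8 against 7.02%. The cAMP response element TGACGTCA (1.55% of all windows) and the CArG box (1.47%) were searched too and had no match in the 8. The member windows are GC-rich, from 59.2% to 78.4% against a median of 52.4% over all windows, and base composition bears on such counts. These matches are descriptions of the letters only.

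Of the 10 genes, 2 were higher in DsRed-positive cells (Klf5 and Klf6), 3 were lower (Klf2, Klf4 and Klf9) and 5 did not pass (Klf3, Klf7, Klf10, Klf13 and Klf15), each gene read by its brightest probe set. A gene was called when its adjusted p in limma was under 0.05, adjusted by Benjamini and Hochberg across the 30175 probe sets that were tested. Over all 14222 genes tested, 20.5% were called by that rule, 9.21% higher and 11.3% lower. The groups did not overlap in 7 of the 10 genes, and in 43.4% of all genes tested. The median log2 change of the 10 members was -0.30, and that of all tested genes 0.04. A level here is log2 of the deposited intensity plus an offset of 39.84, quantile normalized, and a log2 change is the DsRed-positive mean minus the DsRed-negative mean.

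**Figure D1:**
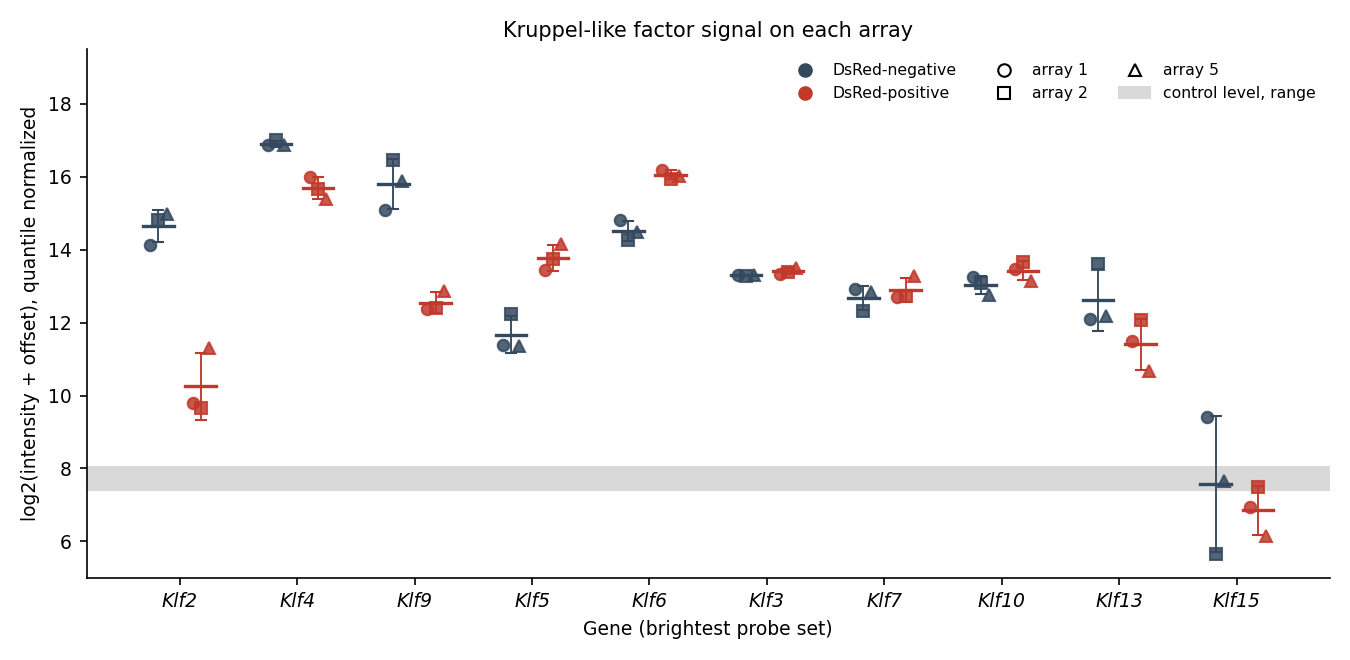
Level of each Kruppel-like factor on every array, as log2 of intensity plus offset after quantile normalization (y axis), by gene (x axis). Points are single arrays with the array number as the symbol, horizontal lines are group means, error bars are SDs over 3 arrays, and the grey band is the range of the control level (7.41 to 8.03). Klf2, Klf4 and Klf9 lie lower in DsRed-positive arrays and Klf5 and Klf6 higher, with no overlap of the groups, while Klf15 lies at or near the control level on most arrays.

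Klf2 had the largest change of the 10. Its deposited signal was 17940, 29860 and 35904 in DsRed-negative arrays 1, 2 and 5 and 805, 669 and 2549 in the DsRed-positive arrays of the same numbers. Every DsRed-negative array was thus above every DsRed-positive array, and within the positive group array 5 was the highest. The levels were 10.25 ± 0.92 (SD, n = 3) in DsRed-positive against 14.65 ± 0.44 in DsRed-negative arrays, a log2 change of -4.39 ± 0.52 (SE), which is 21.0-fold lower (limma, adjusted p = 0.00134). Klf2 has 1 probe set on the array. The DsRed-positive signal was not at background, since all 3 arrays lay above the control level, which is set on each array by the 95th percentile of the 27 controls that were not spiked in. Leaving out any 1 array gave changes from -4.92 to -4.06 with adjusted p up to 0.00991, and without both arrays numbered 1 the change was -4.48 (adjusted p = 0.0297).

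The genes around Klf2 in its vascular pathway were lower where they passed. Of 8 genes, 0 were higher, 3 were lower and 5 did not pass, with a median log2 change of -1.20. Without both arrays numbered 1, and without both numbered 5, 1 of the 8 was called lower. The 3 lower genes are known Klf2 targets in endothelium: thrombomodulin (Thbd, -3.62 ± 0.40, adjusted p = 9.83e-04), the sphingosine-1-phosphate receptor S1pr1 (-2.39 ± 0.40, adjusted p = 0.00594) and endothelial nitric oxide synthase (Nos3, -1.45 ± 0.32, adjusted p = 0.0213). S1pr1 was not called without both arrays numbered 1 (-2.58, adjusted p = 0.0588) or both numbered 5 (-2.46, adjusted p = 0.0538). Nos3 was not called without DsRed-negative 5 (adjusted p = 0.0523) or without DsRed-positive 1, 2 or 5 (0.0953, 0.0514 and 0.0832). Without both arrays numbered 1 it gave -1.40 (adjusted p = 0.149). Upstream of Klf2, Mef2c gave -1.96 ± 1.32 (adjusted p = 0.353), with 11.27, 5.91 and 10.21 in the DsRed-negative arrays, of which the second lay below its control level. Of the 6 fits without 1 array, only that without DsRed-negative 2 called Mef2c (-3.66, adjusted p = 0.0168). The others ran up to -0.91, with adjusted p up to 0.676. In the DsRed-positive group 2 of the 3 arrays lay at or below the control level. None of the 3 tested Mef2c probe sets (-2.20 to -0.97) was called in the main setting. Mef2d gave -0.95 (adjusted p = 0.0997). Endothelial markers moved with Klf2: 5 of 6 tested ones were lower (3 without both arrays numbered 1), with a median of -2.76, the 8 markers had a mean level of 9.89 to 10.60 in DsRed-negative and 7.75 to 7.92 in DsRed-positive arrays, and Tie1 was at or below the control level in all DsRed-positive arrays. Leukocyte markers were lower in the same arrays too, 5 of 6 with a median of -3.12. So were all 6 fibroblast markers (median -6.28) and 4 of 5 tested smooth muscle markers (median -5.20). The part of RNA from endothelial cells or from these other cells in the Klf2 difference was not tested.

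Klf9, a small factor that recruits the Sin3 corepressor and answers to glucocorticoid and thyroid hormone, was lower by 9.60-fold on its brightest probe set. Its deposited signal was 35666, 135598 and 75679 in DsRed-negative arrays 1, 2 and 5 and 5830, 5448 and 7596 in DsRed-positive arrays 1, 2 and 5. The DsRed-negative arrays spread widely, with array 2 the highest, but their lowest value was far above all DsRed-positive values. The levels were 12.55 ± 0.29 (SD, n = 3) against 15.81 ± 0.68, a log2 change of -3.26 ± 0.43 (limma, adjusted p = 0.00212). Changes without 1 array ran from -3.61 to -2.88 with adjusted p up to 0.0150, and without both arrays numbered 1 the change was -3.75 (adjusted p = 0.0223).

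Klf9 was read by 7 probe sets. Of the 6 that were tested, 5 were lower, with changes from -3.26 to -1.77. The second brightest, 1428288_at, gave 51208, 49252 and 50588 in the DsRed-negative and 8211, 8168 and 4558 in the DsRed-positive arrays, so that here the negative group hardly varied. Its log2 change was -2.80 ± 0.36 (adjusted p = 0.00188). The probe set 1452723_at stood apart at -0.06 ± 0.92, with deposited signals of 1381, 637 and 113 in the DsRed-negative and 127, 909 and 355 in the DsRed-positive arrays, which overlapped. The probe set 1436952_at was below the intensity filter and at or below the control level on all 6 arrays. The mean over all 7 probe sets gave a change of -1.96 (3.89-fold, adjusted p = 0.00307), less than the brightest one by more than 1.5 times.

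Among 7 glucocorticoid receptor and response genes, 0 were higher, 3 were lower and 4 did not pass, with a median log2 change of -1.40. Of all genes tested, 11.3% were called lower. Without both arrays numbered 2, and without both numbered 5, 1 of the 7 was called lower. With the offset at the 50th percentile, or with trend and robust estimation in limma, 5 were called lower. Tsc22d3, an anti-inflammatory mediator of glucocorticoids, had a change of -4.05 ± 0.45 (adjusted p = 0.00107) on its brightest probe set, and 2 of its 4 tested probe sets were lower while another gave 0.61. The phosphatase Dusp1, which is also 1 of the early response genes counted with Klf4, gave -1.77 ± 0.32 (adjusted p = 0.00877). It was not called without both arrays numbered 2 (-1.59, adjusted p = 0.0755) or both numbered 5 (-1.61, adjusted p = 0.0915). The clock gene Per1 gave -1.40 ± 0.36 (adjusted p = 0.0347). Per1 was called without DsRed-negative 5 but not without any of the other 5 arrays (highest adjusted p 0.137, when DsRed-positive 1 was left out). Without both arrays numbered 1 it gave -1.12 (adjusted p = 0.229). Fkbp5, a chaperone of the receptor and a standard response gene, had a value of 1.07 (adjusted p = 0.133), and it was called higher when each array was centred on its median (1.46, adjusted p = 0.0374). The receptor Nr3c1 gave -1.44 (adjusted p = 0.0620), and 1 of its 4 tested probe sets was lower. Fibroblast, smooth muscle and leukocyte markers were lower in the same arrays, with medians of -6.28, -5.20 and -3.12. The part of RNA from such cells in the differences of Klf9 and the glucocorticoid genes was not tested. Klf15, the other glucocorticoid-induced member, had no difference that passed, and its signal lay at or below the control level on 5 of 6 arrays. Its deposited signals were 668, 16.2 and 197 in the DsRed-negative and 63.0, 105 and 24.5 in the DsRed-positive arrays, and only DsRed-negative 1 was above its control level. All 3 DsRed-positive and 2 of the 3 DsRed-negative arrays were thus at or below the control level. The groups overlapped, so no bound on a fold is given. The fitted log2 change was -0.72 ± 0.88 (adjusted p = 0.625, 95% interval -2.78 to 1.34). Only 3 of the 6 fits without 1 array gave a value for Klf15, and none called it. These ran from -1.69 (without DsRed-negative 2, adjusted p = 0.132) to -0.35, with adjusted p up to 0.864.

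Klf4 was lower in DsRed-positive cells, but this call was lost in most other settings. Its brightest probe set, 1417394_at, gave 112051, 254026 and 188340 in DsRed-negative arrays 1, 2 and 5 and 41501, 52831 and 41084 in DsRed-positive ones. It was among the brightest probe sets of the array, ranking 32nd to 55th of 45101 in the DsRed-negative and 275th to 535th in the DsRed-positive arrays. The levels were 15.69 ± 0.31 (SD, n = 3) against 16.91 ± 0.08, a log2 change of -1.22 ± 0.33 or 2.33-fold (limma, adjusted p = 0.0405). With the values as deposited, without quantile normalization, the change was -1.96 (3.89-fold, adjusted p = 0.0128), more than 1.5 times as large. Its call was lost without each of the 6 arrays in turn, with adjusted p from 0.0606 (without DsRed-positive 1) to 0.128 (without DsRed-positive 5). Without both arrays numbered 1 the change was -1.60 (adjusted p = 0.101).

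The other Klf4 probe set, 1417395_at, changed more. It gave 13757, 42951 and 36638 in the DsRed-negative and 7667, 4127 and 4607 in the DsRed-positive arrays, again without overlap. Its log2 change was -2.36 ± 0.48, or 5.13-fold lower (adjusted p = 0.0144), and 4 of the 6 fits without 1 array kept the call, the weakest being the fit without DsRed-positive 2 (adjusted p = 0.0601). Other early response genes, which are induced by tissue dissociation among other stimuli, stood lower too. Of 10 such genes, 4 were lower, 0 were higher and 6 did not pass, with a median of -1.12 and a mean level of 15.29 to 15.49 in DsRed-negative and 14.10 to 14.38 in DsRed-positive arrays. With any 1 pair of same-numbered arrays left out, 0 or 1 of the 10 were called. With the offset at the 50th percentile 7 were called lower, and with trend and robust estimation in limma 8 were. The part of this response in the Klf4 difference was not tested.

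Klf5 was the member with the largest increase. On the brightest probe set, 1451021_a_at, DsRed-positive arrays 1, 2 and 5 had deposited signals of 11607, 14390 and 18525, and the DsRed-negative ones 2607, 4523 and 2484. The lowest positive array was more than 2 times the highest negative one. The levels were 13.79 ± 0.36 (SD, n = 3) against 11.67 ± 0.50, a log2 change of 2.12 ± 0.40 or 4.34-fold (limma, adjusted p = 0.00997). The call was kept without each array in turn (1.93 to 2.41, adjusted p up to 0.0445). It was lost without both arrays numbered 1 (2.19, adjusted p = 0.0821) and without both numbered 5 (1.77, adjusted p = 0.0992). Centring each array on its median gave 2.77 (6.82-fold).

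The other 2 Klf5 probe sets were dimmer and pointed the same way. The probe set 1451739_at gave 1555, 773 and 2020 in the DsRed-positive and 326, 772 and 334 in the DsRed-negative arrays, where DsRed-positive 2 and DsRed-negative 2 were nearly equal before normalization. Its log2 change was 1.76 ± 0.48 (adjusted p = 0.0428), and it was called in 1 of the 6 fits without 1 array (highest adjusted p 0.145, when DsRed-positive 1 was left out). The third, 1430255_at, was below the intensity filter. It lay at or below the control level in all 3 DsRed-negative arrays and above it in the DsRed-positive ones, at least 1.13-fold higher with no test. The epithelial markers moved with Klf5: all 6 general epithelial and all 3 basal markers were higher, with medians of 4.03 and 2.13. The basal markers were fewer without some arrays, with 1 or 2 of 3 called in each fit without 1 array, and the part of the share of epithelial cells in the Klf5 difference was not tested.

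Klf6, a widely expressed factor of early response and tissue repair, was also higher. Its brightest probe set, 1433508_at, gave 44617, 63084 and 62932 in the DsRed-positive and 29167, 19799 and 23815 in the DsRed-negative arrays. The groups did not overlap, and the DsRed-negative arrays still gave strong signal. The levels were 16.06 ± 0.13 (SD, n = 3) against 14.52 ± 0.28, a log2 change of 1.53 ± 0.32 or 2.89-fold (limma, adjusted p = 0.0169). All 5 Klf6 probe sets had no overlap between groups, as had 38.5% of all tested probe sets. Their changes ran from 1.13 to 1.96, and 3 of them passed. The remaining 2 were 1459718_x_at (1.13, adjusted p = 0.0850) and 1427742_a_at (1.96, adjusted p = 0.0812), the second with DsRed-negative 1 far below the other negative arrays (506 against 2299 and 1718). The 2 dimmer probe sets that passed, 1447448_s_at and 1418280_at, were each called in 1 of the 6 fits without 1 array. Their highest adjusted p in these limma fits was 0.0860 and 0.114. The call of the brightest probe set was lost without DsRed-positive 1, 2 or 5 (adjusted p = 0.0638, 0.0532 and 0.0556), although its change then stayed between 1.56 and 1.61. Without both arrays numbered 1 it was 1.75 (adjusted p = 0.0798).

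Klf6 thus went the other way from Klf4 although both are early response genes. The level of Klf6 minus that of Klf4, taken within each array, came to 0.20, 0.28 and 0.63 for DsRed-positive cells (arrays 1, 2 and 5) against -2.04, -2.72 and -2.39 for DsRed-negative cells. For Klf5 minus Klf4 it was -2.55, -1.93 and -1.22 against -5.46, -4.75 and -5.52. Klf5 minus Klf2 was 3.65, 4.10 and 2.85 against -2.75, -2.57 and -3.62. As the probe sets differ in brightness, the sign of such a difference has no meaning for the amounts of the transcripts; what the arrays show is that the balance between the members differed by group, with a gap wider than the spread within either group. Each pair sets a member called higher against a member called lower, so the gap restates those calls. These pairs were chosen after their values were seen and carry no test.

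**Figure D2:**
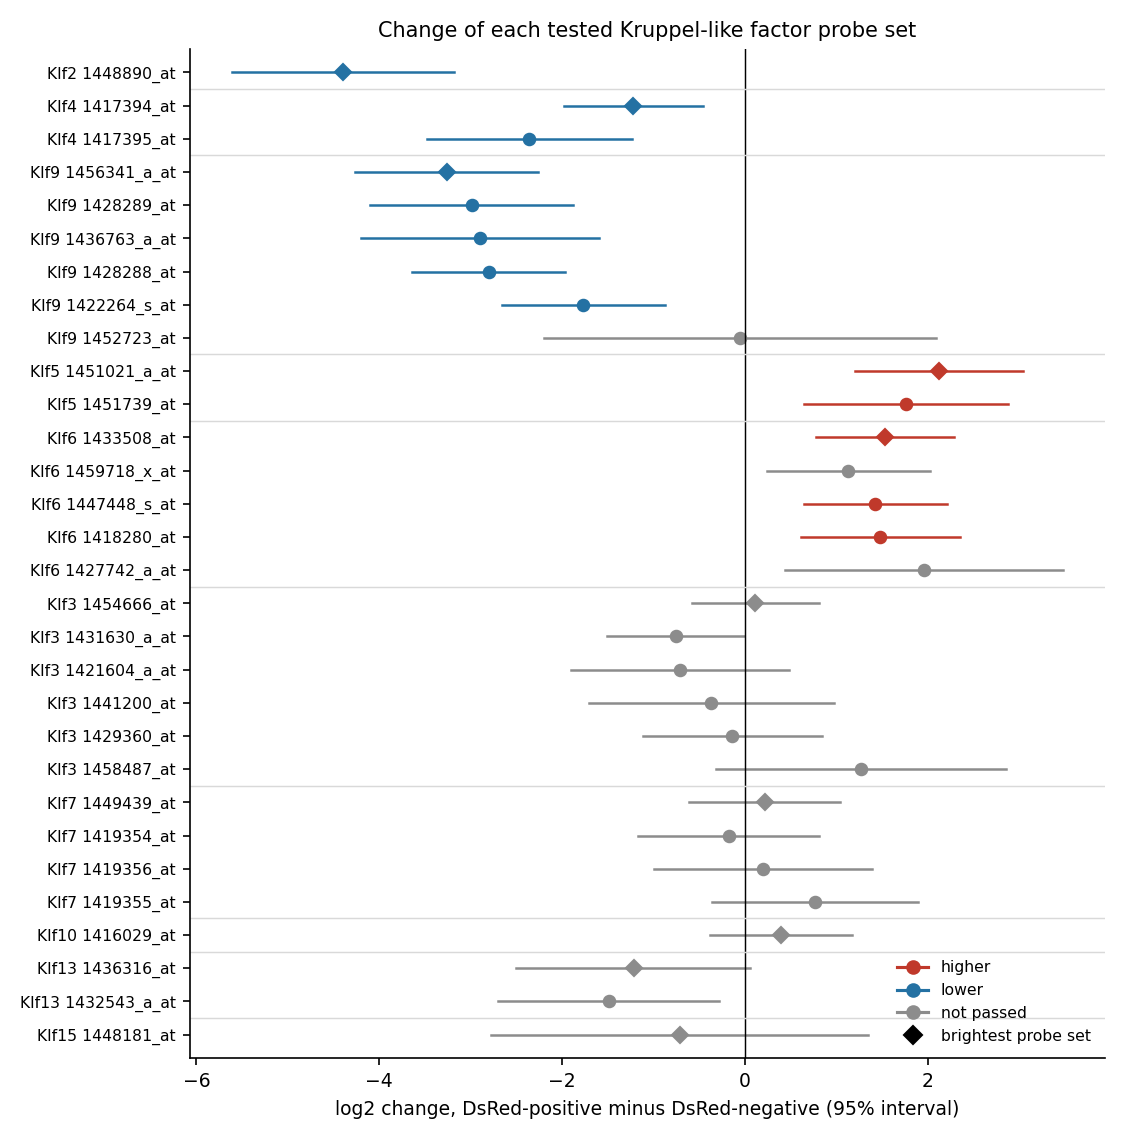
Log2 change (DsRed-positive minus DsRed-negative, x axis) of the 30 tested Kruppel-like factor probe sets, by gene and probe set (y axis), with 95% intervals from limma. Red and blue mark probe sets called higher and lower, grey those that did not pass, and diamonds the brightest probe set of each gene. The Klf9 probe sets lie between -3.26 and -1.77 except for 1452723_at at -0.06, and all 5 Klf6 probe sets lie to the right of 0.

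By probe set, 5 of the 30 tested were higher, 8 lower and 17 did not pass, while 17.2% of all 30175 tested probe sets were called, 8.63% higher and 8.62% lower. In 19 of the 30 the groups did not overlap, against 38.5% of all tested probe sets. Another 4 member probe sets (of Klf3, Klf5, Klf9 and Klf13) lay below the intensity filter and were not tested. No member had probe sets called in opposite directions.

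Klf3, a repressor that works through the corepressor CtBP, showed no difference that passed in limma on any of its 6 tested probe sets, 1 of which had an unadjusted p under 0.05. The brightest gave 9894, 9267 and 9692 in the DsRed-negative and 10914, 11166 and 11820 in the DsRed-positive arrays. These were close together in both groups and did not overlap. Its log2 change was 0.11 ± 0.30 (adjusted p = 0.832), with a 95% interval from -0.58 to 0.81. The dimmer probe sets ranged from -0.76 (1431630_a_at, adjusted p = 0.153) to 1.26 (1458487_at, adjusted p = 0.248). In the latter, 2 of the 3 DsRed-negative arrays lay at or below the control level.

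Klf7, which is best known from developing neurons, gave 7482, 4698 and 6910 in the DsRed-negative and 7307, 6864 and 10021 in the DsRed-positive arrays on its brightest probe set. The groups overlapped, and the log2 change was 0.22 ± 0.36 (adjusted p = 0.719; 95% interval -0.61 to 1.04). Its 4 probe sets ranged from -0.18 to 0.76 and none passed by limma, the unadjusted p of the 4 being 0.155 to 0.705. Klf10, the TGF-beta inducible early gene, has 1 probe set, which gave 9480, 8047 and 6568 in the DsRed-negative and 11709, 13485 and 9221 in the DsRed-positive arrays. The groups overlapped slightly, with a log2 change of 0.39 ± 0.33 (adjusted p = 0.464; 95% interval -0.38 to 1.17). The intervals of Klf3, Klf7 and Klf10 leave room for changes of about 2-fold, so they do not show equal levels. Centring each array on its median, which raised the median change of all tested probe sets from 0.09 to 0.35, moved them to 0.77, 0.89 and 1.05, and none was called.

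Klf13, a Sin3-binding factor also known from T cells, had lower values in DsRed-positive cells that did not pass. Its brightest probe set gave 4212, 11693 and 4400 in the DsRed-negative and 3106, 4308 and 1590 in the DsRed-positive arrays, where DsRed-negative 2 stood above all others. On this deposited scale DsRed-positive 2 overlapped the DsRed-negative group, while after normalization the groups lay apart. The log2 change was -1.22 ± 0.55 (adjusted p = 0.176), with a 95% interval from -2.50 to 0.06. It was -0.74 without DsRed-negative 2, and centring the arrays on their medians gave -0.56. The probe set 1432543_a_at gave -1.49 ± 0.52 (adjusted p = 0.0935), with DsRed-negative 2 again the highest (4742 against 1242 and 2307). That probe set was called in 1 of the 6 fits without 1 array.

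Among TGF-beta early response genes, to which Klf10 belongs, the directions were mixed. Of 4 tested, 1 was higher, 2 were lower and 1 did not pass, with a median of -1.07. Tgif1, a repressor of Smad signalling, was higher (2.31 ± 0.32, adjusted p = 0.00268). The matrix protein Tgfbi (-6.94 ± 0.45, adjusted p = 1.26e-04) and the inhibitor Smad7 (-2.13 ± 0.43, adjusted p = 0.0131) were lower. Smad7 was not called without DsRed-positive 1 or 5 (adjusted p = 0.0599 and 0.0563), nor without both arrays numbered 1, 2 or 5 (-2.42, -1.97 and -2.01, adjusted p = 0.0581, 0.0509 and 0.109). All 6 fibroblast markers were lower in the same arrays, with a median of -6.28, and their part in these differences was not tested.

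Of the other genes of the KLF and Sp families, 13 of 17 had a probe set here and 12 were tested, with a median change of 0.12. Sp6, a factor of epithelial appendages such as teeth and hair, was higher, with levels of 10.33, 10.12 and 10.56 for DsRed-positive cells against 8.64, 8.50 and 8.72 for DsRed-negative cells. Its change was 1.71 ± 0.32 (adjusted p = 0.00938), although its other tested probe set gave 0.28. Its call was lost without both arrays numbered 1 (1.68, adjusted p = 0.0978) or both numbered 5 (1.67, adjusted p = 0.0784), and as the mean of its probe sets (0.50, adjusted p = 0.260). Sp5, a target of Wnt signalling, was lower, at least 4.00-fold, since its DsRed-positive signal lay at or below the control level (fitted change -3.28, adjusted p = 7.60e-04). The other 10 did not pass, among them Klf11 at 1.27 (adjusted p = 0.109) and Klf12 at -1.70 (adjusted p = 0.146). The 3 tested probe sets of Klf12 ranged from -2.43 to -0.41, and without DsRed-negative 2 its brightest gave -0.89. Klf11 was called higher when each array was centred on its median (1.87, adjusted p = 0.0210).

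Genes for proteins that KLF factors work with gave no calls in the main setting, read here as transcripts only. None of 10 corepressors and coactivators passed by limma, and the unadjusted p was under 0.05 for 1 of them; changes ran from -0.47 (Ctbp1, adjusted p = 0.382) to 0.92 (Hdac3, adjusted p = 0.114) around a median of 0.01. With each array centred on its median 2 of them were called higher, Hdac3 among them (1.56, adjusted p = 0.0222), and 1 was called higher when the probe sets of each gene were averaged. None of 4 ubiquitin ligases that act on KLF proteins passed either, with changes from -0.06 to 0.43 and 0 with an unadjusted p under 0.05.

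**Figure D3:**
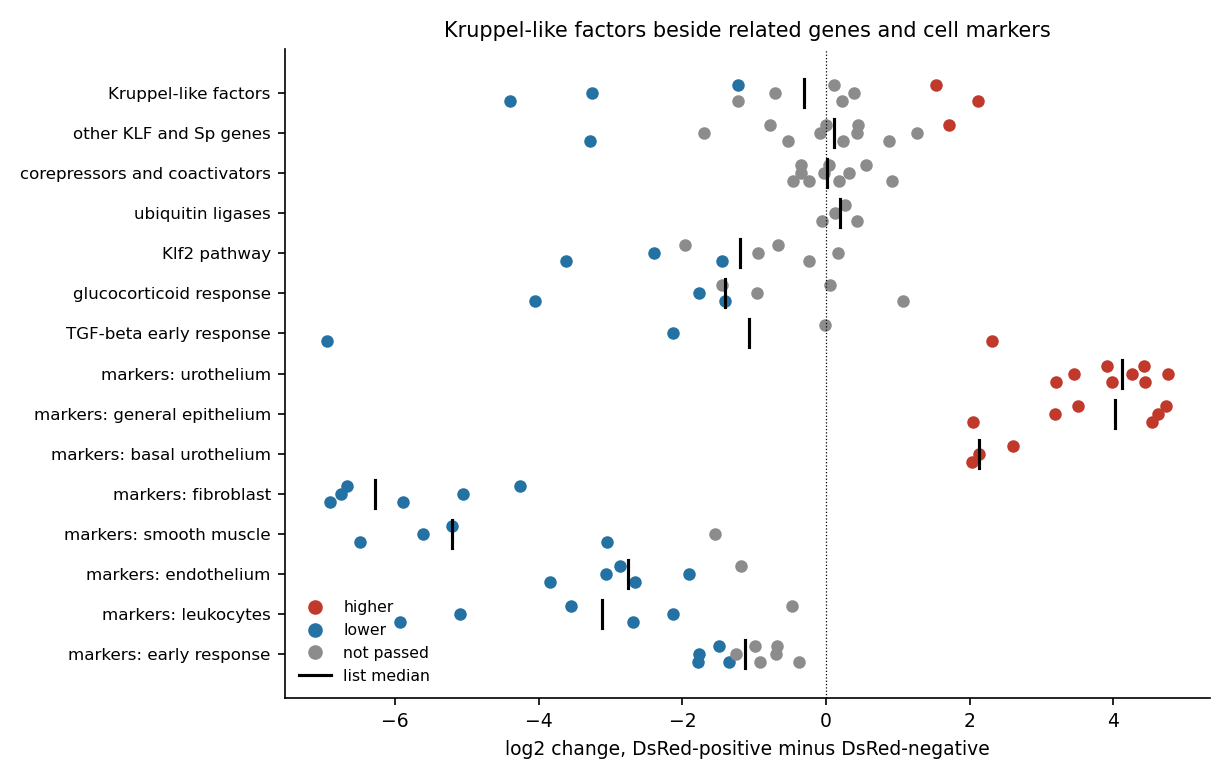
Log2 change (DsRed-positive minus DsRed-negative, x axis) of single tested genes, by list (y axis): the 10 Kruppel-like factors, related gene lists and markers of cell types. Each point is the brightest probe set of a gene, red if called higher, blue if called lower and grey if not passed, and black lines are medians. The Kruppel-like factors spread to both sides of 0 around a median of -0.30, whereas the corepressors and coactivators lie between -0.47 and 0.92 and the fibroblast markers between -6.91 and -4.26.

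The changes of the 5 called members kept their sign in every setting tried, but their calls were not equally stable. Klf2 and Klf9 were called in all 20 other settings, Klf5 in 18, Klf6 in 14 and Klf4 in 6. With each setting, the median change of all probe sets moved between -0.19 (values as deposited) and 0.35 (each array centred), and the changes of the called members were larger than that shift.

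**Figure D4:**
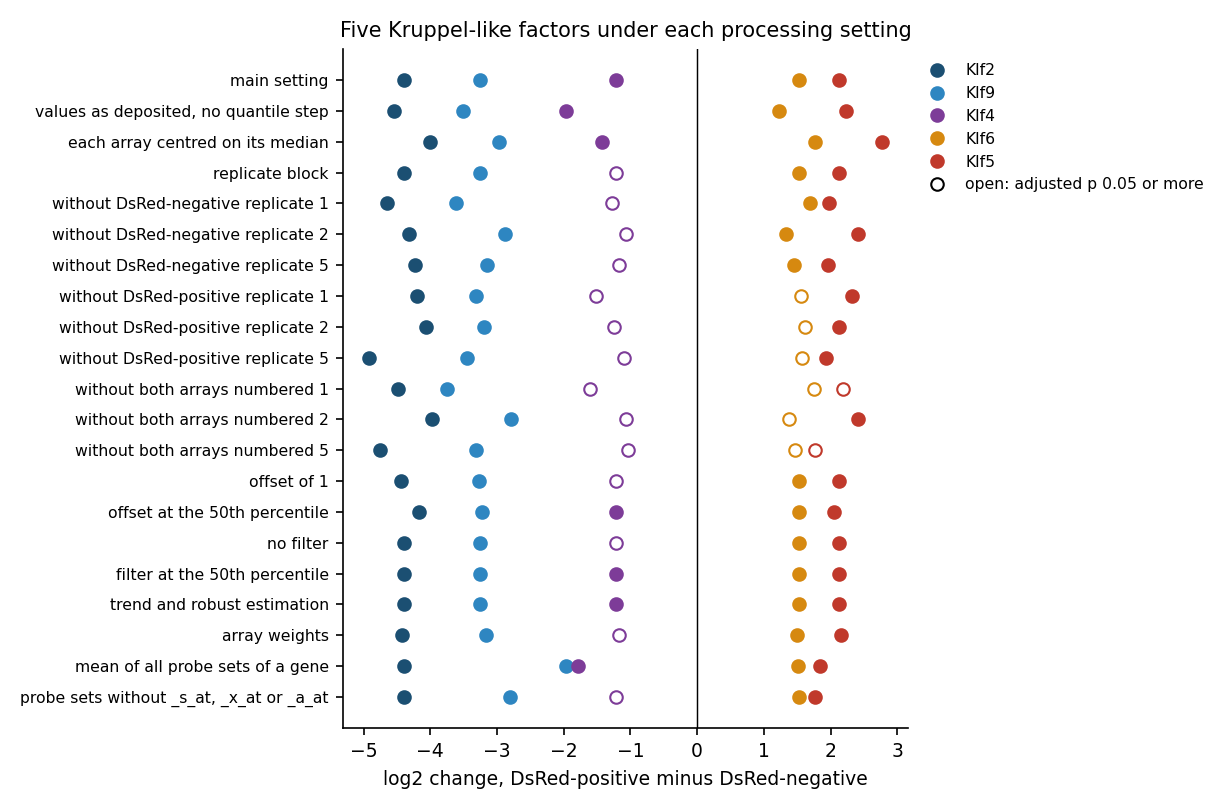
Log2 change (x axis) of Klf2, Klf9, Klf4, Klf6 and Klf5 under the main setting and 20 others (y axis). Filled points have an adjusted p under 0.05 and open points do not. Klf2 and Klf9 stay filled throughout, while Klf4 is open in 14 settings and Klf6 in 6.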

How the data were processed

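The deposited table holds 1 intensity per probe set and array, on a linear scale; per the submitters' processing notes the authors used GCOS, with settings not stated in the labels. Trimmed by 2% at either end, all 6 arrays had a mean of 1500.01, so they had been scaled before deposition. After adding an offset of 39.84 (the 20th percentile), log2 values were quantile normalized, because array medians spanned 7.74 to 8.48; this brings the arrays to 1 distribution and narrows differences among the brightest probe sets. After removal of 64 controls, the test took probe sets whose mean level exceeded 7.18, the 33rd percentile, which left 30175 (14222 genes). Ratios of dim probe sets are understated because of the offset. Tests used R 4.3.3 and limma 3.58.1 (lmFit and eBayes, two-sided, group as the only term, Benjamini-Hochberg adjustment, threshold 0.05). The code was also run on simulated arrays with known changes, as many up as down. That run does not test the normalization or the error rate for these data. Errors of changes are SEs of the limma fit. Symbols came from the platform annotation, updated through gene IDs: 34945 probe sets had 1 gene, 932 several and 9160 none. A gene's value is that of its brightest single-gene probe set. Where 1 group lay wholly at or below the control level and the other wholly above it, only a bound holds. The fold is then taken against that level and written as at least. Promoter windows came from RefSeq. The named genes are all 10 members with all their probe sets and, of each list, the called genes and up to 2 that did not pass. The members and lists were chosen with earlier results of these data known. Correlations between members over the 6 arrays, which had been planned, were left out because the arrays fall into 2 separate groups.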

Additional observations from a re-analysis of the deposited data

How the results depend on the processing

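Klf4 kept its direction but lost its call in 14 of 20 settings: with the replicate block (-1.22, adjusted p = 0.0772), an offset of 1 (-1.22, adjusted p = 0.0564), no filter (-1.22, adjusted p = 0.0534), array weights (-1.17, adjusted p = 0.0527), probe sets without _s_at, _x_at or _a_at (-1.22, adjusted p = 0.0520), without both arrays numbered 1, 2 or 5 (-1.60, -1.07 and -1.03) and without each single array (-1.51 to -1.06). Klf6 was not called without both arrays numbered 1, 2 or 5 (1.75, 1.38 and 1.47) and without each DsRed-positive array (range over all 6 arrays 1.33 to 1.69). Klf5 was not called without both arrays numbered 1 (2.19) or 5 (1.77). The number of members called higher, 2, became 0, 1 and 0 without both arrays numbered 1, 2 or 5, and ran from 1 to 2 without single arrays. The number called lower was 2 in place of 3 wherever Klf4 was lost. Klf3 changed sign as the mean of all its probe sets (-0.07), and Tsc22d3 on probe sets without those suffixes (0.61); the cause was not tested.

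The labels do not say that a number marks the same animal or batch. Correlations of same-numbered arrays' deviations from the group means were 0.145, 0.037 and 0.053 for numbers 1, 2 and 5, not all above 0.1, so the number was not used as a pairing. As a hint from the data, each of the 6 arrays correlated best with its own number, and both arrays numbered 1 shared high Xist and low Eif2s3y signal. The replicate block reduced called probe sets from 5205 to 4404 and, among members, changed only the call of Klf4. Among the pathway genes named in the report it ended the calls of Nos3 and Per1 (adjusted p = 0.0547 and 0.0779) and brought in Nr3c1 (0.0470). With it, 2 in place of 4 early response genes were called lower and 1 in place of 3 basal markers higher. Without DsRed-positive 1, 2853 were called, without both arrays numbered 1, 2179, and without both numbered 5, 2425. Higher probe sets made up 50.05% of those called. That share was 38.8% when the quantile step was left out and 67.8% when arrays were centred on their medians. Signal near the control level limits Klf15, which had no value in 8 settings.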
